A study of Mus musculus with 4 samples.

Results

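Mesothelial and pleural surface genes were examined in lung tumors and non-tumor lung of mice with and without the transcription factor Nrf2 (gene Nfe2l2). The set was a list of 10 genes known for expression in mesothelium: Lrrn4, Upk3b, Upk1b, Msln, Wt1, Muc16, Prg4, Has1, Bnc1 and Rspo1. The list was chosen with earlier results of these data known. Array probes were assigned to these genes through the RefSeq accession of the probe. This matched 9 probes to 9 of the 10 genes, out of 41170 probes for 32300 genes or transcripts in all. No probe could be matched to Muc16, a large membrane mucin, which is not analysed here. Each of the 9 genes was read by 1 probe, printed once on the array except for Wt1, whose probe had 10 spots.

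RNA came from female ICR mice, labelled as 6 months old, that had all received urethane, a carcinogen that induces lung tumors in mice, at 1 g/kg by intraperitoneal injection 16 weeks earlier. The 4 groups were Nrf2-/- tumor, Nrf2+/+ tumor, Nrf2-/- non-tumor lung and Nrf2+/+ non-tumor lung, each with 1 array of RNA pooled from 8 mice. No lung without urethane was included, and the labels do not say how the Nrf2 allele was made or whether tumor and non-tumor tissue came from the same animals. The tumors were surface tumors, trimmed of surrounding tissue under a microscope per the labels' protocols and between 1.0 and 1.5 mm across per the series' design text. With 1 array per group no comparison between a pair of arrays has replicate error or a p-value; the error given beside a difference is the scanner software's own and covers spot measurement only. Signals are given below in intensity units before scaling, and differences after scaling each array on its 75th percentile, which was 536 in Nrf2-/- tumor and 515 in Nrf2+/+ tumor, against 685 in Nrf2-/- and 706 in Nrf2+/+ non-tumor lung. Between 53.5% and 62.9% of probes were well above background on each array and no spot was saturated. Nfe2l2 checked the genotype labels: its signal was 6.94 in Nrf2-/- tumor and 7478 in Nrf2+/+ tumor, and 5.13 in Nrf2-/- non-tumor lung against 7913 in Nrf2+/+ non-tumor lung. Of the 2 slides, 1 carried only the Nrf2+/+ non-tumor array, so the comparison of genotypes in tumor and the comparison of tissues in Nrf2-/- mice stayed within a slide.

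The mesothelium is a sheet of flattened cells that covers the lung (visceral pleura) and lines the chest wall. Its cells carry glycoproteins such as mesothelin on their surface, secrete hyaluronan and lubricin that let the pleural layers slide, and express the transcription factor Wt1 and secreted factors that act on the tissue beneath. None of the 10 genes is restricted to mesothelium in the whole body: uroplakins coat the bladder, lubricin is made in joints, and Wt1 is active in the kidney. The tissues were not sorted, so in these bulk samples fewer mesothelial cells and less RNA per cell cannot be told apart.

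By their readings the 9 genes shared a pattern across the 4 pools. They were lower in tumor than in non-tumor lung of the same genotype, and higher in Nrf2-/- than in Nrf2+/+ tissue of the same kind. After scaling, the highest level of each of the 9 was in Nrf2-/- non-tumor lung and the lowest in Nrf2+/+ tumor. Bnc1 was well above background only in Nrf2-/- non-tumor lung, so its order among the other pools was not measured. As read, Has1 and Prg4 had the widest gaps between genotypes, and Rspo1 had the narrowest among the genes measured on all arrays.

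**Figure D1:**
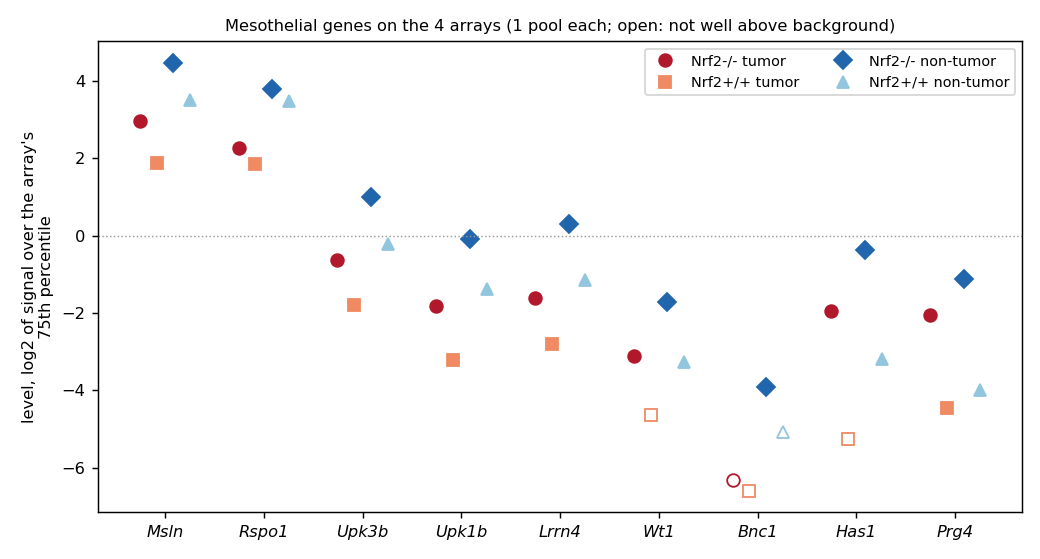
Level of each mesothelial gene on the 4 arrays, as log2 of the signal over that array's 75th percentile (y axis), with 1 marker per pool; open markers were not well above background. Levels compare pools within a gene, not genes with each other; in each gene the Nrf2-/- non-tumor pool is highest and the Nrf2+/+ tumor pool lowest.

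Among the surface glycoproteins, Msln, which encodes mesothelin, a membrane-anchored protein that binds the mucin Muc16, had a signal of 4208 in Nrf2-/- tumor and 1902 in Nrf2+/+ tumor, against 15234 in Nrf2-/- and 8018 in Nrf2+/+ non-tumor lung. Upk3b, a uroplakin used as a mesothelial marker in lung, read 349 and 148 in Nrf2-/- and Nrf2+/+ tumor, against 1383 and 606 in Nrf2-/- and Nrf2+/+ non-tumor lung. Both genes thus ran in the same order of pools, with the 2 tumor pools below both non-tumor pools. Upk1b, a tetraspanin and the partner of other uroplakins in bladder plaques, read 153 in Nrf2-/- and 55.6 in Nrf2+/+ tumor, against 650 in Nrf2-/- and 273 in Nrf2+/+ non-tumor lung. Lrrn4, a leucine-rich repeat membrane protein, read 176 and 74.7 in Nrf2-/- and Nrf2+/+ tumor, against 845 and 321 in Nrf2-/- and Nrf2+/+ non-tumor lung. For these 4 genes the Nrf2-/- tumor pool lay below the Nrf2+/+ non-tumor pool, by -0.40 (Upk3b) to -0.53 (Msln) on the scaled log2 level, where the software's error was at most 0.21.

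Both transcription factors were below background on some arrays. Wt1, a zinc-finger factor that marks mesothelium from the embryo on, read 62.7 in Nrf2-/- tumor and 20.9 in Nrf2+/+ tumor, against 208 in Nrf2-/- and 73.4 in Nrf2+/+ non-tumor lung. Its 10 spots ranged between 52.3 and 96.6 in Nrf2-/- tumor, between 17.2 and 31.1 in Nrf2+/+ tumor, between 195 and 222 in Nrf2-/- non-tumor lung and between 68.9 and 79.9 in Nrf2+/+ non-tumor lung. These ranges include 1 spot of Nrf2-/- tumor that was flagged as an outlier and left out of the level. With that spot included, the ranges of the Nrf2-/- tumor and Nrf2+/+ non-tumor pools overlapped. The other pools were separate from these and from each other. After scaling, the 2 overlapping pools differed by 0.17 (error 0.27), Nrf2-/- tumor minus Nrf2+/+ non-tumor lung. In Nrf2+/+ tumor only 2 of the 10 spots were well above background, so Wt1 has only a bound there. Bnc1, which encodes the zinc-finger protein basonuclin 1, read 6.76 and 5.35 in Nrf2-/- and Nrf2+/+ tumor, against 45.4 and 20.8 in Nrf2-/- and Nrf2+/+ non-tumor lung. Its measurable signal was that of a single pool.

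The secreted factors and the enzyme of the pleural coat varied more. Has1, a synthase that extrudes hyaluronan, read 139 in Nrf2-/- tumor and 13.4, not well above background, in Nrf2+/+ tumor, against 532 in Nrf2-/- and 78.0 in Nrf2+/+ non-tumor lung. Prg4, which encodes lubricin, a boundary lubricant, read 129 and 23.4 in Nrf2-/- and Nrf2+/+ tumor, against 318 and 44.3 in Nrf2-/- and Nrf2+/+ non-tumor lung. In both genes the 2 Nrf2-/- pools lay above both Nrf2+/+ pools, unlike in the surface glycoproteins: the scaled log2 level of the Nrf2-/- tumor pool exceeded that of Nrf2+/+ non-tumor lung by 1.23 (error 0.24) for Has1 and by 1.93 (0.26) for Prg4. Rspo1, an R-spondin that strengthens Wnt signalling through the receptors Lgr4, Lgr5 and Lgr6, read 2603 and 1865 in Nrf2-/- and Nrf2+/+ tumor, against 9477 and 7858 in Nrf2-/- and Nrf2+/+ non-tumor lung. Both tumor pools lay below both non-tumor pools, and the genotypes stood close to each other. The genes lie on chromosomes 1 (Prg4), 2 (Lrrn4 and Wt1), 4 (Rspo1), 5 (Upk3b), 7 (Bnc1), 16 (Upk1b) and 17 (Msln and Has1).

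Promoters of 6 of the 10 genes were found in the RefSeq table (build GRCm38.p6, 250 bases before to 50 bases after the start of the gene), and 4 are shown because their genes stand for the range of patterns: Upk3b and Lrrn4 for the common pattern, Has1 for a wide gap between genotypes and Bnc1 for a signal near background. They lie at chr5:136038246-136038545 on the plus strand (Upk3b), chr2:132880813-132881112 on the minus strand (Lrrn4), chr17:17855139-17855438 on the minus strand (Has1) and chr7:81992250-81992549 on the minus strand (Bnc1). Capitals mark GGAATG, the motif of TEAD factors, in the first pair, CCAAT in Has1 and TGACNNNGC, the core of the antioxidant response element that Nrf2 binds, in Bnc1. The matches in Upk3b and Bnc1 are on the strand opposite to the one printed; each motif was searched on both strands, and no match overlapped another.
Upk3b: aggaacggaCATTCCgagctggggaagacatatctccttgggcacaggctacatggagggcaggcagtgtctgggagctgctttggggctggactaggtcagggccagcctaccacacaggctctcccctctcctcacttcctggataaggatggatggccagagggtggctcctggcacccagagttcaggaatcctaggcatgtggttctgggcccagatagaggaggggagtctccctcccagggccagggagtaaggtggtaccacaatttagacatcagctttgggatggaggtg
Lrrn4: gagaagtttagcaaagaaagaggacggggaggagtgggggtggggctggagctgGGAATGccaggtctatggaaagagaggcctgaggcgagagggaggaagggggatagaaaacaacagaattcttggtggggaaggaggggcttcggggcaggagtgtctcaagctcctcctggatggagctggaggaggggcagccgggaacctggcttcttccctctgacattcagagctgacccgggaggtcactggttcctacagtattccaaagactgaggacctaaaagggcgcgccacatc
Has1: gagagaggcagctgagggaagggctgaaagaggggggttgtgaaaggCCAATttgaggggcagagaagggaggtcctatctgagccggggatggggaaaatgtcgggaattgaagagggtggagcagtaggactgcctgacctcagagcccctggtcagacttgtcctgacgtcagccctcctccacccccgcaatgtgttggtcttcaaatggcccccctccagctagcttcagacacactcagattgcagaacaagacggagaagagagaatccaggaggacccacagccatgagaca
Bnc1: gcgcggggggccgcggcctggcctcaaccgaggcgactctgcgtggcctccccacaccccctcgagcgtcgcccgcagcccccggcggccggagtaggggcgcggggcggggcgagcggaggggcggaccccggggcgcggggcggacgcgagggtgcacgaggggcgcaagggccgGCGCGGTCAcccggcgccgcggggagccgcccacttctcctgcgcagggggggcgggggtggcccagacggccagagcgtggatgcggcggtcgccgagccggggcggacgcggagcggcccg
The core TGACNNNGC was found in 1 of the 6 promoters (Bnc1), and in 12.4% of the 32851 promoters in the table. GGAATG was found in 2 of 6 (Upk3b and Lrrn4), and in 14.7% of all promoters. CCAAT was found in 1 of 6 (Has1), and in 37.4% of all; GCGTGGGNG, a motif of WT1 and EGR factors, was found in none of the 6 and in 1.90% of all. These matches describe the letters of a 300-base window and not binding.

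In Nrf2-/- mice, tumors had lower levels of the mesothelial genes than non-tumor lung, on arrays of the same slide. The scaled log2 level of Lrrn4 differed by -1.91 (error 0.21), that of Upk1b by -1.74 (0.21), Upk3b by -1.63 (0.21), Has1 by -1.59 (0.22), Rspo1 by -1.51 (0.20), Msln by -1.50 (0.20) and Wt1 by -1.38 (0.25). Prg4 stood at -0.95 (0.22), just short of a 2-fold difference. Put as shares, the tumor pool kept 26.6% of the non-tumor level of Lrrn4, 32.3% of that of Upk3b, 35.3% of that of Msln and 51.6% of that of Prg4. Bnc1 was at least 1.21-fold lower in tumor. Such a bound takes, for the dim array, its lowest signal that passed as well above background, or the probe's own signal if greater. By the readings, 8 of 9 genes lay past the 2-fold mark on the lower side and none on the higher, and 7 of 9 with Bnc1 at its bound. Among all 19425 genes measured in this comparison, 8.99% were at least 2-fold lower and 5.51% higher. The median of the 9 was -1.59 (-1.51 with Bnc1 at its bound), beside -0.02 over all genes. With normexp, another background correction, Wt1 read -0.73 and Bnc1 -0.14, under its bound, and 6 of 9 genes lay past the mark.

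In Nrf2+/+ mice, where the tumor and non-tumor arrays lay on different slides, the tumor difference was much alike in size. Upk1b differed by -1.84 (error 0.24), Lrrn4 by -1.65 (0.23), Rspo1 by -1.62 (0.20), Msln by -1.62 (0.20) and Upk3b by -1.58 (0.21). Has1 was at least 2.46-fold and Wt1 at least 2.32-fold lower in tumor, and Prg4 stood at -0.47 (0.38). With normexp Has1 read -0.31, Wt1 -0.25 and Prg4 0.07. No 2-fold difference was then left for Has1 or Wt1, whose values lie under their bounds. The tumor pool kept 33.4% of the non-tumor level of Upk3b and 32.5% of that of Msln, next to 72.3% of that of Prg4. Of 8 measured genes 7 lay past the mark on the lower side and none on the higher, where 15.3% of all 19913 genes measured were lower by that much and 8.08% higher; Bnc1 was below background on both arrays. The median of the 8 was -1.62 (-1.60 with 2 genes at their bounds), beside -0.03 over all genes.

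The tumor comparisons in the 2 genotypes shared no array. Their difference, Nrf2-/- minus Nrf2+/+, was -0.05 (error 0.29) for Upk3b, 0.11 (0.32) for Upk1b, 0.11 (0.29) for Rspo1, 0.12 (0.29) for Msln and -0.26 (0.31) for Lrrn4. For Prg4 it was -0.49 (0.44), larger than its error. These 6 genes passed the background flag on every array. Whether the tumor difference depends on genotype was not tested, since each group had 1 array. Nor can it be told apart from the slide, because the Nrf2+/+ non-tumor array was alone on its slide.

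**Figure D2:**
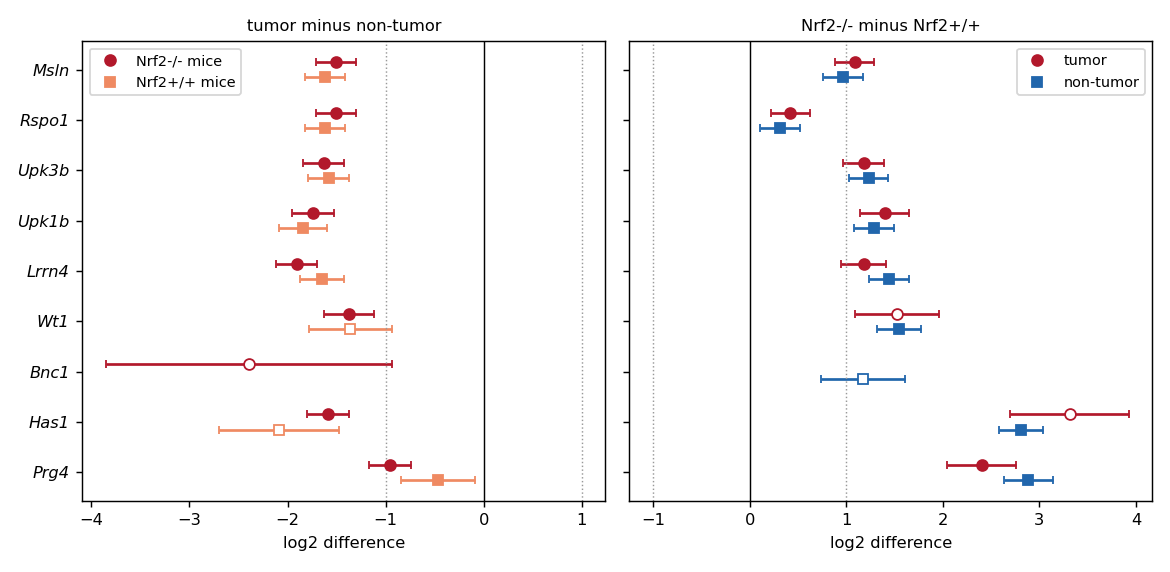
Differences of the scaled log2 level for each mesothelial gene: tumor minus non-tumor in both genotypes (left) and Nrf2-/- minus Nrf2+/+ in both tissues (right). Bars are the scanner software's error, open markers are pairs with 1 array not well above background, pairs below background on both arrays are left out, and dotted lines mark 2-fold; the paired markers of Upk3b, Upk1b, Msln and Rspo1 lie close together, and those of Prg4 and Has1 lie farther apart.

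The genotypes were then compared within each tissue. In tumors, on a common slide, Prg4 was higher in Nrf2-/- mice by 2.40 (error 0.36), Upk1b by 1.40 (0.25), Upk3b by 1.18 (0.21), Lrrn4 by 1.18 (0.23) and Msln by 1.09 (0.20). Has1 was at least 5.76-fold and Wt1 at least 2.60-fold higher, while Rspo1 differed by 0.42 (0.20). After normexp Has1 differed by 1.29, Prg4 by 1.09 and Wt1 by 0.50, all smaller than these values or bounds. At least 2-fold higher were 7 of 8 measured genes and none was lower, against 4.36% higher and 3.62% lower of all 17824 genes measured; after normexp 3 genes were past the mark. The median was 1.29 (1.28 with 2 genes at their bounds) beside -0.01 over all genes.

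In non-tumor lung, across slides, the same genes differed by similar amounts. Prg4 was higher in Nrf2-/- mice by 2.89 (error 0.25), Has1 by 2.81 (0.23), Wt1 by 1.54 (0.23), Lrrn4 by 1.44 (0.21), Upk1b by 1.29 (0.21) and Upk3b by 1.23 (0.20). Msln, at 0.97 (0.20), lay just inside and Rspo1, at 0.31 (0.20), well inside the 2-fold mark. Bnc1 was at least 2.15-fold higher. This made 7 of 9 genes at least 2-fold higher and none lower, where 3.07% of all 20190 genes measured were higher and 4.56% lower. The median was 1.29, beside 0.02 over all genes. After normexp Bnc1 differed by 0.29, under its bound, and Wt1 by 0.98, with 6 genes past the mark and a median of 1.06. The Nrf2+/+ non-tumor array on the separate slide enters this comparison and not the one in tumors. The part of the slide in these values was not tested.

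Set against Msln, the genotype gap of Has1 was wider by 1.84 (error 0.30) in non-tumor lung, and that of Prg4 was wider by 1.31 (0.41) in tumor and 1.92 (0.32) in non-tumor lung. The gap of Rspo1 was narrower than that of Msln, by -0.66 in each tissue (error 0.29 in both). After normexp the gap of Prg4 exceeded that of Msln by 0.04 in tumor and 0.75 in non-tumor lung, and that of Has1 by 0.24 and 1.16, so the departure of Prg4 in tumor was no longer seen; the gap of Rspo1 was still narrower, by -0.67 and -0.83. Upk3b differed from Msln in this respect by 0.09 (error 0.29) in tumor and 0.26 (0.29) in non-tumor lung, Upk1b by 0.31 (0.32) and 0.32 (0.29), and Lrrn4 by 0.09 (0.31) in tumor and 0.47 (0.29) in non-tumor lung. Wt1 differed from Msln by 0.57 (0.31) in non-tumor lung, and by -0.08 after normexp.

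Counted over both tumor comparisons, 7 of the 9 genes were at least 2-fold lower in tumor of both genotypes, which 6.01% of the 20553 genes well above background on any array were. Counted over both genotype comparisons, 6 of 9 were at least 2-fold higher in Nrf2-/- mice in both tissues (0.837% of all genes). Lrrn4, Upk3b, Upk1b, Wt1 and Has1 met both conditions, as did 16 of all genes (0.0778%). The other genes with a symbol among these 16 were Anxa8, Apol7a, Crb2, Fhad1, Folr2, Kcnj14, Lgals2, Ppp2r2c and Smpd3. They were read from the count after their values were seen. These counts use the readings, also where an array was not well above background. All of these counts rest on the same 4 arrays, and on a list chosen with earlier results of these data known. After normexp none of the listed genes that met both conditions still did. The genotype difference in tumor was then 0.81 for Lrrn4, 0.90 for Upk3b, 0.77 for Upk1b and 0.50 for Wt1. Has1 differed by -0.31 between tumor and non-tumor lung of Nrf2+/+ mice. Msln then met both. Its tumor difference was -1.62 in Nrf2-/- and -1.61 in Nrf2+/+ mice, and its genotype difference 1.05 in tumor and 1.06 in non-tumor lung.

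**Figure D3:**
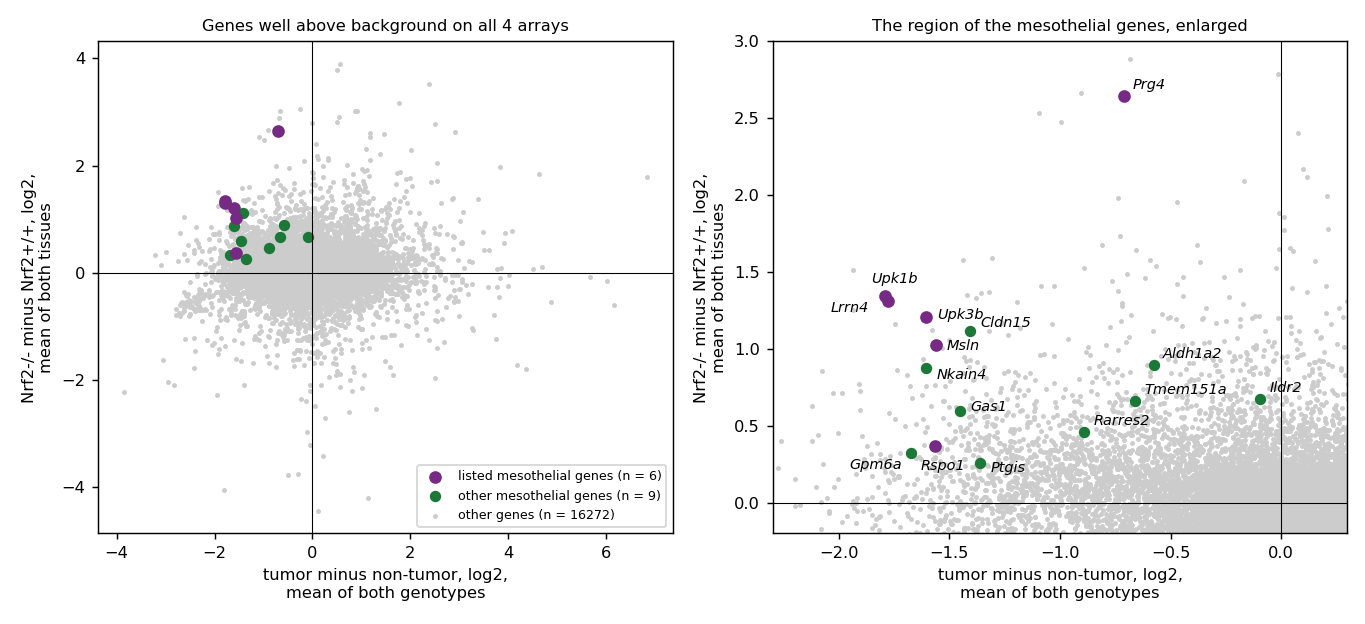
Each point is a gene well above background on all 4 arrays, placed by its tumor minus non-tumor difference averaged over both genotypes (x axis, log2) and its Nrf2-/- minus Nrf2+/+ difference averaged over both tissues (y axis, log2); the right panel enlarges the upper left. The 6 listed and 9 other mesothelial genes that were measurable on all arrays all lie lower in tumor and higher in Nrf2-/-, a quadrant that holds 23.1% of the 16287 genes.

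A fit across all genes with terms for tissue and genotype, which uses the departure from additivity as its error, gave the only test the design allows. The 9 genes were chosen with earlier results of these data known, so their p-values are not an independent check. In this fit (limma with Benjamini-Hochberg adjustment over 20553 genes) no gene passed an adjusted p of 0.05 for tissue or for genotype, among the 9 or elsewhere; at an unadjusted p below 0.05 there were 6083 genes (29.6%) for tissue and 1894 (9.22%) for genotype. All 9 mesothelial genes had an unadjusted p below 0.05 for tissue, with adjusted p between 0.0756 and 0.149. For genotype 7 of the 9 did, with adjusted p between 0.257 and 0.605 over the 9 genes. The outcome depended on the scaling: with arrays scaled on their medians 8 of the 9 passed for tissue among 2888 genes that did, and 2 of the 9 passed for genotype among 173.

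The pattern was also looked for in 15 other genes known from mesothelium, of which 14 had a probe. This list too was chosen with earlier results of these data known, and it was read on the same arrays. Its values therefore describe these pools and are not an independent check of the pattern. In Nrf2-/- mice 6 of 11 measured were at least 2-fold lower in tumor and none higher with dim genes at their bounds (median -1.02), and 7 of 11 as read (median -1.43). In Nrf2+/+ mice 6 of 10 were at least 2-fold lower (median -1.21). Ildr2 and the growth factor Fgf9 stood above 0 there, at 0.37 and 0.20. Over all genes measured, 8.99% were at least 2-fold lower in tumor in Nrf2-/- and 15.3% in Nrf2+/+ mice. Cldn15, a claudin, read 558 in Nrf2-/- and 271 in Nrf2+/+ tumor, against 2079 in Nrf2-/- and 900 in Nrf2+/+ non-tumor lung. Nkain4, a small membrane protein, read 1273 and 589 in Nrf2-/- and Nrf2+/+ tumor, against 4368 and 2782 in Nrf2-/- and Nrf2+/+ non-tumor lung. Both held the order of pools seen in Msln. Gpm6a, a membrane glycoprotein, read 826 and 545 in Nrf2-/- and Nrf2+/+ tumor, against 2901 and 2773 in Nrf2-/- and Nrf2+/+ non-tumor lung, so that, as for Rspo1, the genotypes were close in non-tumor lung. Aldh1a2, which makes retinoic acid, was less reduced in tumor, with 3609 and 2056 in Nrf2-/- and Nrf2+/+ tumor, against 7591 and 3802 in Nrf2-/- and Nrf2+/+ non-tumor lung.

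Between genotypes the other mesothelial genes had smaller medians than the listed ones. In tumor 1 of 10 measured was at least 2-fold higher in Nrf2-/- mice and none lower (median 0.66), beside 4.36% higher of all genes. In non-tumor lung 4 of 11 were higher and none lower with dim genes at their bounds (median 0.60). As read 5 of 11 were higher (median 0.69), beside 3.07% of all genes. Fgf9 ran the other way in tumor, where it was at least 1.25-fold lower in Nrf2-/- mice. Gas1, a membrane-anchored growth-arrest protein, differed by 0.59 in tumor and 0.60 in non-tumor lung, and Ptgis, prostacyclin synthase, by 0.60 and -0.08. Calb2, Tbx18 and Cdh2 were not well above background on any array. Calb2 encodes calretinin, a standard marker of mesothelium in histology, and all 3 of its probes were dim.

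Genes of epithelial surfaces that mesothelium also uses were mostly level or higher in tumor; Cdh1 was not well above background in Nrf2-/- tumor and has no measured direction there. Krt8 and Krt18, the keratins of simple epithelia, differed between tumor and non-tumor lung by 1.11 and 1.34 in Nrf2-/- mice and by 1.34 and 1.75 in Nrf2+/+ mice, whereas Krt19 differed by 0.25 and 0.34. Of 8 such genes 3 were at least 2-fold higher in Nrf2-/- tumor and 5 in Nrf2+/+ tumor, and none was lower. Over all genes measured, 5.51% were at least 2-fold higher in tumor in Nrf2-/- and 8.08% in Nrf2+/+ mice. Between genotypes, Cdh1 read 28.6 in Nrf2-/- and 1968 in Nrf2+/+ tumor, at least 69.8-fold lower in Nrf2-/- mice. In non-tumor lung Cdh1 read 32.2 in Nrf2-/- and 1065 in Nrf2+/+ mice. In each tissue 1 of the 8, Cdh1, was at least 2-fold lower in Nrf2-/- mice and none was higher. Of all genes measured, 3.62% were lower in tumor and 4.56% in non-tumor lung. Of 5 membrane mucins with a probe 3 were measured, Muc1 (also in the epithelial list), Muc4 and Muc20, and all were at least 2-fold higher in tumor of both genotypes, for example Muc20 by 2.00 in Nrf2-/- and 2.55 in Nrf2+/+ mice.

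Relatives of the listed genes varied in their pattern. Of the 6 uroplakin genes, which include Upk3b and Upk1b, 3 of 5 measured were at least 2-fold lower in tumor in each genotype (4 of 5 as read in Nrf2-/- mice); Upk2 differed between tumor and non-tumor lung by -0.39 in Nrf2-/- and -0.95 in Nrf2+/+ mice, and Upk1a was at least 2.77-fold and at least 2.19-fold lower in tumor in the same order. The shares of all genes at least 2-fold lower in tumor were 8.99% in Nrf2-/- and 15.3% in Nrf2+/+ mice. Upk3a ran against Upk3b between genotypes, at 33.0 in Nrf2-/- and 88.8 in Nrf2+/+ non-tumor lung. Has1 was the hyaluronan synthase with the widest range over the pools. Has2 read 33.5 and 42.3 in Nrf2-/- and Nrf2+/+ tumor, against 39.1 and 35.2 in Nrf2-/- and Nrf2+/+ non-tumor lung, and Has3 was well above background only in Nrf2-/- non-tumor lung (30.0). Cemip, which takes part in hyaluronan breakdown, was well above background only in Nrf2-/- tumor (159), at least 6.59-fold above Nrf2+/+ tumor. Cd44, the main hyaluronan receptor, was higher in tumor by 0.98 in Nrf2-/- and 1.28 in Nrf2+/+ mice.

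Rspo1 was the only R-spondin well above background on all 4 arrays. Rspo2 and Rspo3 were not well above background on any array, and Rspo4 only in Nrf2+/+ non-tumor lung (26.0). Of the receptors, Lgr4 read 2717 and 3376 in Nrf2-/- and Nrf2+/+ tumor, against 5341 and 5707 in Nrf2-/- and Nrf2+/+ non-tumor lung, and Lgr5 read 130 and 47.6 in Nrf2-/- and Nrf2+/+ tumor, against 56.3 and 62.8 in Nrf2-/- and Nrf2+/+ non-tumor lung. Axin2, a feedback gene of Wnt signalling, was well above background only in Nrf2-/- non-tumor lung, at 63.5, at least 3.00-fold above Nrf2+/+ non-tumor lung. Wif1 and Lgr6 ran the other way, at 141 and 27.6 in Nrf2-/- against 2851 and 93.7 in Nrf2+/+ non-tumor lung. With dim genes at their bounds, 1 of 10 measured there was at least 2-fold higher in Nrf2-/- mice and 2 were lower. Of all genes measured, 3.07% were higher and 4.56% lower. In the whole list of R-spondins, receptors and feedback genes, Rspo1 included, 9 genes were measured in each genotype. With dim genes at their bounds, 3 were at least 2-fold lower in tumor in Nrf2-/- and 4 in Nrf2+/+ mice. As read there were 5 in each, beside 8.99% and 15.3% of all genes measured.

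Genes whose profile over the 4 arrays came closest to the mean profile of the 6 mesothelial genes measured on all arrays were Smpd3, Crb2, Cldn15, Ppp2r2c, Lgals2, Bmp7, Clec4g and Flrt2. Likeness was the root mean square distance over the 4 centred log2 levels, which was 0.05 for Smpd3, a sphingomyelinase, 0.09 for Crb2, a cell polarity protein, and 0.12 for Cldn15, against a median of 1.03 over all 16287 genes. Smpd3 read 156 and 59.6 in Nrf2-/- and Nrf2+/+ tumor, against 541 and 215 in Nrf2-/- and Nrf2+/+ non-tumor lung. By the same measure the listed genes lay between 0.08 (Upk3b) and 0.90 (Has1), with Prg4 at 0.78. With only 4 arrays such a ranking describes these pools alone.

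Marker genes of other cell types also differed between tumor and non-tumor lung, and between genotypes their medians ran in both directions. Smooth muscle genes had a median of -1.51 between tumor and non-tumor lung in Nrf2-/- mice and -1.12 in Nrf2+/+ mice (7 and 5 of 8 at least 2-fold lower), but -0.70 and -0.14 between genotypes in tumor and non-tumor lung. Cardiac muscle genes had tumor medians of -2.29 in Nrf2-/- and -2.69 in Nrf2+/+ mice and genotype medians of 0.30 in tumor and 0.00 in non-tumor lung. For ciliated genes the tumor medians were -2.82 and -2.13 in Nrf2-/- and Nrf2+/+ mice and the genotype medians -1.24 and -0.26 in tumor and non-tumor lung. Fibroblast genes stood at -0.69 and -0.71 for tumor in Nrf2-/- and Nrf2+/+ mice and at 0.48 and 0.34 for genotype in tumor and non-tumor lung, the same signs as the mesothelial genes at smaller size, with 1 and 0 of 12 at least 2-fold higher in Nrf2-/-. The summed fibroblast signal was 76963 in Nrf2-/- and 56262 in Nrf2+/+ tumor, against 125284 in Nrf2-/- and 101314 in Nrf2+/+ non-tumor lung; that of the 9 listed mesothelial genes was 7825 and 4107 in Nrf2-/- and Nrf2+/+ tumor, against 28692 and 17292 in Nrf2-/- and Nrf2+/+ non-tumor lung. Genes of serous cavity macrophages, which share the pleural space, had tumor medians of 0.03 in Nrf2-/- and -0.42 in Nrf2+/+ mice and genotype medians of 0.49 in tumor (2 of 6 at least 2-fold higher) and 0.31 in non-tumor lung (1 of 7), and Alox15 among them was not well above background on any array. Adipocyte genes had tumor medians of -0.42 in Nrf2-/- and -1.77 in Nrf2+/+ mice as read, where with dim genes at their bounds 1 and 4 of 7 were at least 2-fold lower in tumor, and differed between genotypes by a median of 0.83 in tumor (1 of 5 at least 2-fold higher, and 2 as read) and -0.52 in non-tumor lung. Among them Adipoq, which encodes adiponectin, read 19.2 and 4.73 in Nrf2-/- and Nrf2+/+ tumor, against 39.6 and 63.4 in Nrf2-/- and Nrf2+/+ non-tumor lung, and was not well above background in either tumor pool. Genes of alveolar type 1 cells had tumor medians of -0.50 in Nrf2-/- and -0.86 in Nrf2+/+ mice and genotype medians of 0.29 in tumor and 0.08 in non-tumor lung. Those of alveolar type 2 cells had tumor medians of 0.96 in Nrf2-/- and 1.21 in Nrf2+/+ mice and genotype medians of 0.03 in tumor and 0.31 in non-tumor lung. The part of any of these cell types in the mesothelial values was not tested. Over all genes measured, 8.99% were at least 2-fold lower in tumor in Nrf2-/- and 15.3% in Nrf2+/+ mice. At least 2-fold higher in Nrf2-/- mice were 4.36% of them in tumor and 3.07% in non-tumor lung.

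**Figure D4:**
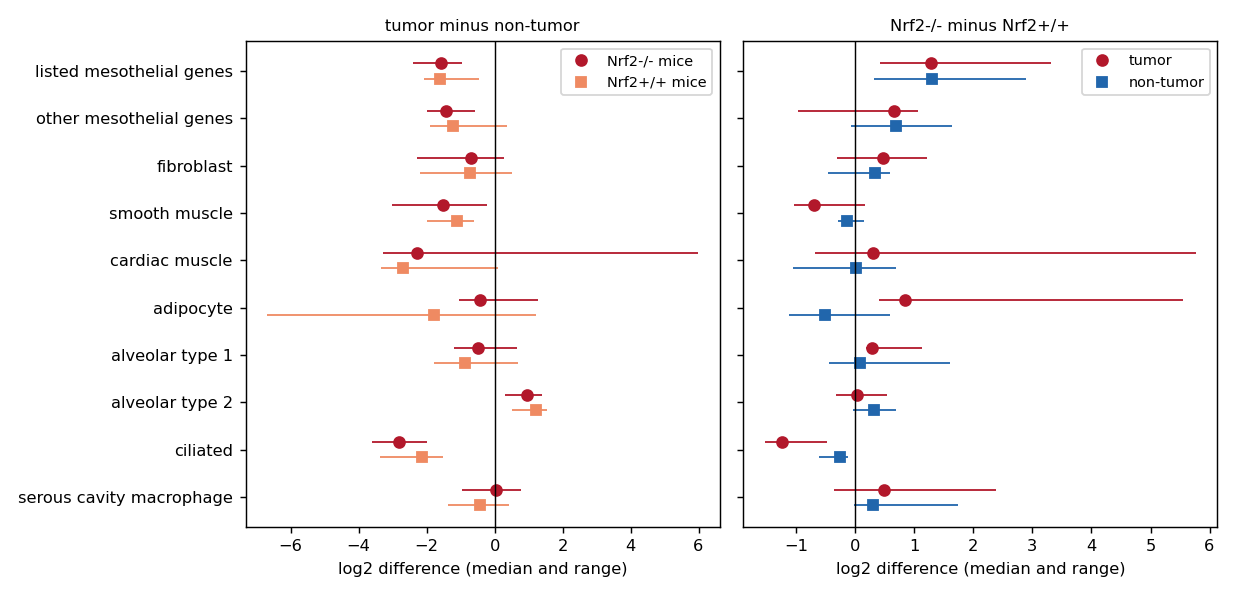
Median (marker) and range (line) of the log2 difference over the measured genes, as read, of the mesothelial and cell type lists: tumor minus non-tumor in both genotypes (left) and Nrf2-/- minus Nrf2+/+ in both tissues (right). The listed mesothelial genes have medians of -1.59 and -1.62 for tumor and 1.29 in both tissues for genotype, where the other lists plotted have genotype medians of at most 0.83; the uroplakin list, which is not plotted, has 1.02 in tumor.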

How the data were processed

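The 4 arrays were 1-colour Agilent whole-mouse-genome arrays (design 014868, build mm9 in the header), each hybridised with Cy3-labelled RNA (500 ng) of a pool. The deposited values are spot intensity, background-subtracted and detrended by Agilent Feature Extraction 10.7.3.1 and not normalized between arrays, per the file headers; the submitters' value table equalled these within 0.497%. Software errors and background flags came from the same deposited files.

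For this report, spots marked as outliers were left out and the log2 intensity of each probe was averaged over its spots. Arrays were scaled by subtracting the 75th percentile of their gene probes, and a gene with several probes was read by the brightest. A probe counted as well above background where most of its spots were so flagged. Genes were named through RefSeq accessions (GRCm38.p6), for 26691 probes. Comparisons of 1 array with 1 array carry no test; counts use a 2-fold mark, taken over genes that passed the background flag on 1 or both arrays. The additive fit (tissue plus genotype) used limma 3.58.1 in R 4.3.3 with 1 residual degree of freedom (prior 2.10). A check on simulated data required only that its estimates matched planted tissue changes. That check does not bear on the p-values. Other steps used Python 3.11.15, numpy 2.4.6, pandas 2.3.3 and matplotlib 3.10.9. The number of arrays limits precision. Replicate spots had a median SD between 0.08 and 0.10 on the log2 scale (245 probes).

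The members and lists were chosen with earlier results of these data known. Named were all listed genes, list members as examples and the 8 nearest profiles. Of 10 promoter motifs searched, 4 are described. Alternatives were median, quantile and spike-in scaling (7 probes), normexp (offset 50, on the median spot signal in place of the planned mean signal), the mean of all probes, a filter on all 4 arrays, the submitters' table and slide as a block.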

Additional observations from a re-analysis of the deposited data

How the results depend on the processing

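No listed mesothelial gene past 2-fold changed sign under the alternatives run, and of their single-gene values 132 moved by less than the software's error and 38 by more, 23 of these after normexp. Another 58 could not move, because each gene has 1 probe or because a filter leaves the value as it was. Values from the submitters' table, counted among the 132, could hardly move either. That table equalled the deposited intensities within 0.497%. Spike-in scaling gave a tumor median of -1.87 in Nrf2-/- mice, where it moved the median of all genes to -0.31, and a tissue coefficient of -1.85. Median scaling gave a tumor median of -1.32 in Nrf2+/+ mice, where it moved the median of all genes to 0.27, and a tissue coefficient of -1.39. After normexp the tumor median in Nrf2+/+ mice was -1.05, the genotype medians were 0.85 in tumor and 1.06 in non-tumor lung, with 3 genes at least 2-fold higher in tumor, the difference of tumor differences was -0.39 and the coefficients were -1.25 for tissue and 1.00 for genotype. Normexp adds an offset that shrinks dim genes; Prg4 in Nrf2+/+ mice then read 0.07 between tumor and non-tumor lung, in place of -0.47. Over genes on all 4 arrays 5 were lower in tumor of Nrf2-/- mice and 4 higher in Nrf2-/- non-tumor lung, since 3 genes drop out. In the limma fit the listed genes past an adjusted p of 0.05 for tissue were 0 as reported, 8 with median scaling, 8 with spike-in scaling, 5 after normexp and 5 over genes on all 4 arrays; for genotype they were 0, then 2 with median scaling and 1 over genes on all 4 arrays. With slide as a block no residual degree of freedom is left, and the values were -1.59 for tissue and 1.18 for genotype. Of all genes measured in Nrf2+/+ mice, 8.08% were higher in tumor by the 2-fold mark and 15.3% lower as reported, and with median scaling 13.5% were higher and 10.6% lower. No paired analysis was possible because each group had 1 array.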
